A study of Glycine max with 6 samples.

Results

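DREB and ERF transcription factors were represented by 13 probe sets among the 37641 soybean probe sets of the Affymetrix Soybean GeneChip, an array on which each transcript is read by a set of short probes. Of these, 12 carry a single gene symbol that starts with DREB or ERF in the annotation of the array. The other has no symbol, was taken from the study's own list as a DDF1 relative with an AP2 domain, and is called DDF1-like here. The study listed DDF1-like for its difference between the same plants, so its values are a description and are not offered as a test. The study also reported a difference of this transcript by semi-quantitative RT-PCR of black and brown seed coats, which is not examined here. The 13 probe sets stand for 10 genes, because ERF3 is read by 4 of them. Only 8677 soybean probe sets have a single symbol, so AP2/ERF genes without such a symbol lie outside this set.

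RNA was taken from the seed coats of nearly isogenic lines of the soybean variety Clark, one with black (iRT) and one with brown (irT) seeds. Both lines carry the i and T alleles and differ by R in black and r in brown, at the locus on chromosome 9 that sets black or brown seed color. Untreated plants were used, and seed coats were dissected at 300 to 400 mg fresh seed weight, when anthocyanins accumulate in the black line. The RNA of 3 plants of each genotype was hybridized, with 1 array for each plant, and the deposited values are log2 signals made by RMA. Isolines of this kind can differ at loci linked to R as well as at R itself.

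DREB proteins (dehydration-responsive element binding) and ERF proteins (ethylene response factors) share the AP2 domain, a plant DNA-binding fold. DREB proteins bind the dehydration-responsive element of promoters that respond to cold, drought, salt and heat, and ERF proteins bind the GCC box of promoters that respond to ethylene and pathogens. In Arabidopsis, transcripts of the DREB1 or CBF group rise within a short time of cold, and DREB2A acts in drought and heat. DDF1 of Arabidopsis is a relative of the DREB1 group, and its overexpression lowers bioactive gibberellin and dwarfs the plant.

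At a limma adjusted p under 0.05, 0 of the 13 probe sets were called different between the genotypes, against 0.109% of all soybean probe sets (0.0664% rose and 0.0425% fell in black). By an unadjusted limma p under 0.05, 2 members passed, DDF1-like and DREB3, against 8.32% of all soybean probe sets. DDF1-like was chosen for its difference between the same plants, so nothing is read from this count. Among the other 12 probe sets only DREB3 passed. The largest difference was in DDF1-like, with a mean of 7.92 ± 0.77 (SD, n = 3) in black and 5.03 ± 1.60 (SD, n = 3) in brown seed coats. Of the other 12 probe sets, DREB1-like and 1 of the 4 of ERF3 were at background, and for the remaining 10 the ratio of black to brown lay between 0.982 and 1.45. In 9 of these 10, all but ERF6, the 95% interval of the difference stayed within 2-fold either way, as it did for 95.6% of all soybean probe sets above background. RNA came from whole seed coats, so fewer cells of a type and less RNA per cell cannot be told apart.

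**Figure D1:**
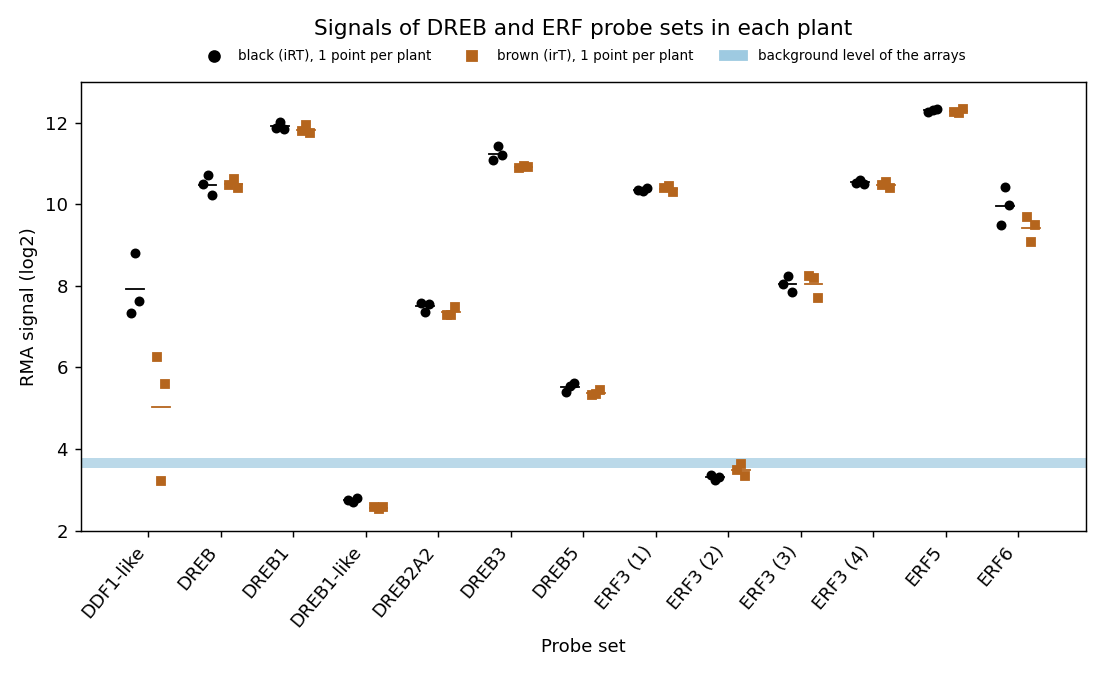
RMA signal on the log2 scale (vertical axis) of the 13 DREB and ERF probe sets (horizontal axis), with 1 point for each plant, black circles for black (iRT), brown squares for brown (irT), short lines for the means of 3 plants and a blue band for the range of the background level over the 6 arrays. ERF3 has 4 probe sets, numbered as in the text. DDF1-like is spread from 3.23 to 8.80, while the points of most other probe sets nearly coincide.

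Before the members are taken in turn, the background and the state of the tissue are given. The array carries 23394 probe sets for pathogens, and the 95th percentile of these on each array, 3.54 to 3.78, was taken as the background level. Of the 13 members, 11 lay above it in all 3 plants of at least 1 genotype, against 67.7% of all soybean probe sets, and 10 did so in all 6 plants, against 64.8%. The seed coat transcripts Ep (a peroxidase), SCB1 and HPS had signals from 10.9 to 14.2 in every plant, far above background. Markers of the maturing embryo had a median log2 difference of 1.09, higher in black, and varied within each genotype. Storage proteins among these markers went both ways, with the probe sets of CG-BETA-1 lower in black and that of GY7 higher. The list held 48 probe sets, 38 of them above background, and their mean log2 deviation from the mean of all plants was 1.65, 0.54 and -0.72 in black plants 1, 2 and 3, and -0.48, 0.09 and -1.08 in brown plants 1, 2 and 3. In limma, 0 of the 48 passed an adjusted p of 0.05, and 4 had an unadjusted p under 0.05.

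DDF1-like belongs to the gene LOC100789097 on chromosome 1 (55768291 to 55769262, positions here and below from the RefSeq annotation of Glycine max v4.0). Its signals were 7.34, 8.80 and 7.64 in black plants 1, 2 and 3. In brown plants 1, 2 and 3 they were 6.26, 3.23 and 5.60. All black plants lay above all brown plants, and brown plant 2 stood apart, below the background level of its own array, while the other brown plants lay above theirs. The black mean was 7.45-fold that of brown, with a 95% interval from 2.13 to 26.1 and an adjusted p of 0.441 in limma. Without brown plant 2 the log2 difference went from 2.90 to 2.00, and without brown plant 1 it went to 3.51.

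Pooled over the genotypes, plants of the same genotype varied more for DDF1-like than for nearly all other transcripts. Its residual SD was larger than that of 99.5% of the soybean probe sets. The SD of DDF1-like was 0.77 in black and 1.60 in brown, where plant 2 stood apart. The embryo markers, like DDF1-like, had the higher level in black (median log2 difference 1.09). The mean of these markers was highest in black plant 1 and lowest in brown plant 3, and DDF1-like was highest in black plant 2 and lowest in brown plant 2. The part of these markers in the difference of DDF1-like was not tested. By the thresholds of the study, a fold above 2 or below 0.5 and a p under 0.01, here with the limma p, DDF1-like was the only member to pass, against 0.303% of all soybean probe sets in either direction and 0.181% with the higher mean in black. The study chose this probe set by those thresholds, so nothing is read from the count.

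**Figure D2:**
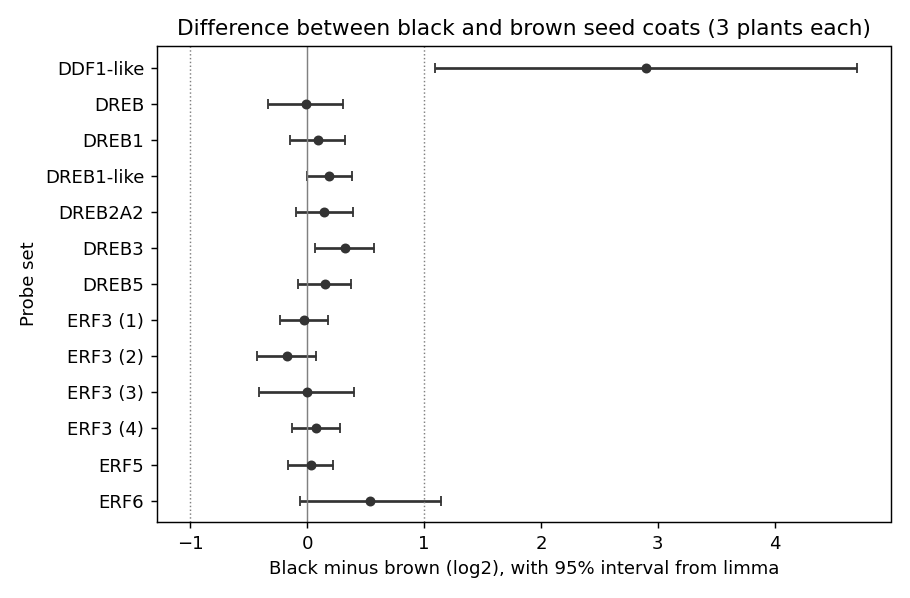
Difference of black minus brown on the log2 scale (horizontal axis) for each DREB and ERF probe set (vertical axis), with points for the limma estimate, bars for its 95% interval, and dotted lines at a 2-fold difference either way. The bar of DDF1-like runs from 1.09 to 4.71, and the bars of the other probe sets except ERF6 end inside the dotted lines, with DREB1-like and ERF3 probe set 2 at background.

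Among the members of the DREB1 group, DREB1-like, whose synonyms in the assembly table are CBF and DREB1, was at background. Its signals were 2.75, 2.70 and 2.80 in black and 2.57, 2.52 and 2.59 in brown plants 1, 2 and 3. Every plant lay below the background level, so no fold is given although the genotypes did not overlap. DREB1-like lies on chromosome 9 (37433299 to 37434492), as does ERF5. This is the chromosome of the R locus, whose own position was not mapped to this assembly here. DREB1 on chromosome 14 (7340566 to 7341558) had signals of 11.88, 12.03 and 11.85 in black and 11.80, 11.95 and 11.74 in brown plants. The genotypes overlapped, and the log2 difference was 0.09 with a standard error of 0.10 (limma adjusted p = 0.839). Its probe set ends in _s_at, which marks probes shared by several transcripts, so the gene behind the signal is uncertain.

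DREB3, on chromosome 4 (9707356 to 9709097), separated the genotypes by a small margin. Its signals were 11.09, 11.42 and 11.21 in black and 10.90, 10.95 and 10.92 in brown plants 1, 2 and 3. The brown plants were close together and all lay below the black plants. The mean was 11.24 ± 0.17 in black and 10.92 ± 0.03 in brown (SD, n = 3 each), a ratio of 1.25 with a 95% interval from 1.05 to 1.49. This did not pass the adjustment over all soybean probe sets (limma adjusted p = 0.532). Together with DDF1-like and DREB1-like, DREB3 was among 3 of 13 members whose genotypes did not overlap, against 14.0% of all soybean probe sets. In all 3 the black plants were the higher ones, as in 5.74% of all soybean probe sets. Nothing is read from this count, since DDF1-like was chosen for its difference and DREB1-like was at background, and without DDF1-like it was 2 of 12.

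DREB2A2, a soybean homologue of the drought and heat factor DREB2A, lies on chromosome 14 (4375238 to 4377534). Its signals in plants 1, 2 and 3 were 7.58, 7.37 and 7.55 for black, and 7.30, 7.28 and 7.48 for brown. Black plant 2 lay below brown plant 3, so the genotypes overlapped (log2 difference 0.15, standard error 0.10, limma adjusted p = 0.740). DREB5, on chromosome 12 (37814583 to 37815851), had signals of 5.40, 5.55 and 5.63 in black and 5.32, 5.35 and 5.45 in brown plants. Here brown plant 3 lay above black plant 1, and the log2 difference was 0.15 with a standard error of 0.10 (limma adjusted p = 0.720). The gene with the plain symbol DREB, on chromosome 13 (39501050 to 39502797), has the synonyms GmERF006 and GmERF007. Its signals were 10.51, 10.71 and 10.24 in black and 10.48, 10.62 and 10.40 in brown plants. The black plants spanned the whole range of the brown plants, and the log2 difference was -0.014 (limma adjusted p = 0.986), a sign that turned with median centring or cyclic loess.

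ERF3, on chromosome 3 (46835411 to 46837573), is known in soybean as GmERF3, and its overexpression in tobacco raised tolerance to salt, drought and disease. It was read by 4 probe sets, which are annotated to the same gene and are not separate evidence. The first had signals of 10.36, 10.32 and 10.40 in black and 10.41, 10.45 and 10.30 in brown plants. The second had 3.36, 3.23 and 3.32 in black and 3.47, 3.64 and 3.33 in brown plants, and only brown plant 2 exceeded the background level. The plants thus lay within 0.15 of each other for the first and within 0.41 for the second.

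The third, whose probes several transcripts share, had 8.04, 8.24 and 7.84 in black and 8.23, 8.19 and 7.70 in brown plants. Probe set 4, of the same kind, had 10.53, 10.61 and 10.50 in black and 10.47, 10.54 and 10.40 in brown plants. In all 4 the genotypes overlapped, and the log2 differences were -0.027, -0.18, -0.0030 and 0.07 in the order given. Their limma adjusted p were 0.956, 0.703, 0.998 and 0.852. The signs of the first and the third turned with median centring or cyclic loess, so no direction is given for ERF3.

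ERF5, on chromosome 9 (3464925 to 3466893), had the narrowest spread of the members. Its signals were 12.27, 12.32 and 12.33 in black and 12.26, 12.24 and 12.33 in brown plants 1, 2 and 3. All 6 plants lay within 0.09 of each other on the log2 scale, and the ratio of black to brown was 1.02 with a 95% interval from 0.891 to 1.17 (limma adjusted p = 0.948). The probe set of ERF5 also ends in _s_at.

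ERF6, on chromosome 12 (40085755 to 40086781), varied most after DDF1-like. Its signals were 9.49, 10.44 and 9.98 in black plants 1, 2 and 3, and 9.70, 9.09 and 9.50 in brown plants 1, 2 and 3. Black plant 1 fell among the brown plants, so the genotypes overlapped. The mean was 9.97 ± 0.47 in black and 9.43 ± 0.31 in brown (SD, n = 3 each), a ratio of 1.45 with a 95% interval from 0.958 to 2.21 (limma adjusted p = 0.630). Its residual SD exceeded that of 96.3% of the soybean probe sets. The log2 difference of 0.54 became 0.31 without black plant 2 and 0.37 without brown plant 2.

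**Figure D3:**
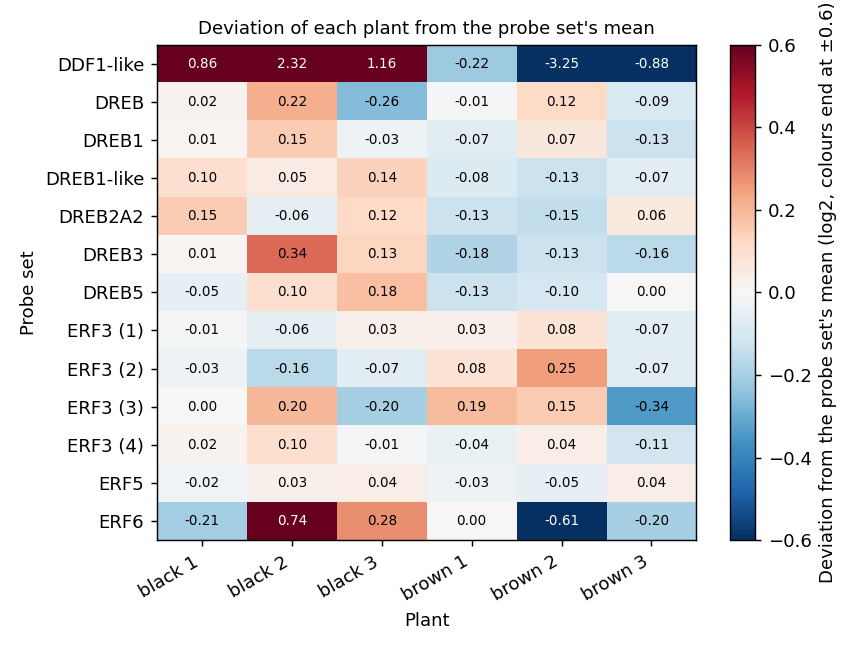
Deviation of each plant (columns) from the mean of 6 plants for each DREB and ERF probe set (rows), in log2 units, with red for higher and blue for lower and colours ending at 0.6 either way. Black plant 2 is at 2.32 and 0.74 for DDF1-like and ERF6, and brown plant 2 at -3.25 and -0.61.

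Black plant 2 had the highest signal of the 6 plants in 7 of the 11 members above background, namely DDF1-like, DREB, DREB1, DREB3, ERF6 and probe sets 3 and 4 of ERF3. Over all soybean probe sets above background, black plant 2 was the highest in 15.5%. Brown plants 2 and 3 each were lowest in 4 of the 11 members, against 17.1% and 11.2% of all soybean probe sets above background. In DDF1-like and ERF6, black plant 2 was the highest and brown plant 2 the lowest at once, as in 2.66% of all soybean probe sets above background. DDF1-like was chosen for its difference and passed the background rule only through the black plants. Probe sets 3 and 4 of ERF3 read the same gene and are not separate evidence. These counts were made after the signals had been seen, no test was run on them, and nothing is read from them. The range over the 6 plants was under 0.5 in 9 of the 12 members other than DDF1-like, and 61.0% of all soybean probe sets had such a range. Among the 10 members above background in all 6 plants, 7 had it, against 62.6% of such soybean probe sets.

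The median log2 difference over the 13 probe sets was 0.09, and that over all soybean probe sets was -0.02. In black, 9 members had the higher mean and 4 the lower, against 17090 and 20551 of all soybean probe sets. With median centring the split was 12 and 1 for the members and 21942 and 15699 for all soybean probe sets, and with cyclic loess 12 and 1 against 19276 and 18365. The members that turned, DREB and ERF3 probe sets 1 and 3, had differences of at most 0.046 under these scalings. Of the 13 members, 2 were at background, 4 read the same gene, ERF3, and DDF1-like was chosen for its difference. Nothing is therefore read from these splits. Without DDF1-like the median was 0.08.

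**Figure D4:**
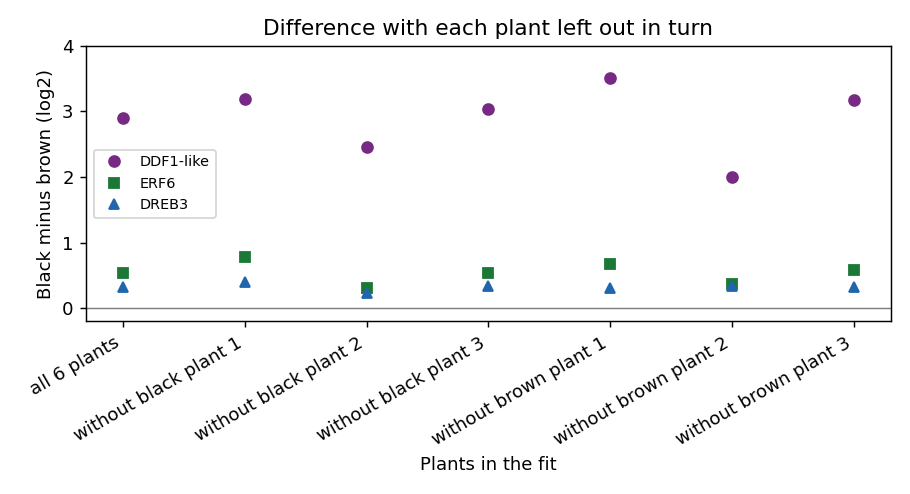
Log2 difference of black minus brown (vertical axis) for DDF1-like, ERF6 and DREB3 with all 6 plants and with each plant left out in turn (horizontal axis). DDF1-like lies between 2.00 without brown plant 2 and 3.51 without brown plant 1, and DREB3 between 0.23 and 0.39.

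Other genes of the same pathways were followed through lists of gene symbols. Of 8 further probe sets of the AP2 family (EREB, EREBP1, RAV, AP2-9 and WRI1B), only the 2 of EREB were above background, and none rose or fell (smallest limma adjusted p = 0.568). Of the 8, only WRI1B, below background, had an unadjusted p under 0.05. The pair of EREB probe sets had log2 differences of -0.27 and -0.13 (limma adjusted p = 0.695 and 0.719). Of 11 probe sets found by symbols of ethylene synthesis and signalling, none rose or fell and 1, of ACCC-2, had an unadjusted limma p under 0.05, but 6 of them are ACC genes that the symbols also match and that encode acetyl-CoA carboxylase. The ethylene receptors ETR2 and EIN4, named for their role after their values had been seen, had log2 differences of -0.08 and -0.04 (limma adjusted p = 0.875 and 0.929). The probe sets of ACS1, an ethylene synthesis gene, had -0.12, 0.05 and -0.02 (limma adjusted p = 0.949, 0.969 and 0.988). In each of them black plant 2 was the lowest and black plant 3 the highest.

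Cold, drought and abscisic acid genes include known targets of DREB proteins. Of 21 probe sets, 15 above background, 0 passed an adjusted p of 0.05 in limma and 4, the 3 of SCOF-1 and SRC2, had an unadjusted p under 0.05. The 3 with the smallest p all read SCOF-1, a cold-inducible C2H2 zinc finger of soybean. The study listed SCOF-1 for its difference between the same plants, so its values are a description only. It also reported this difference by semi-quantitative RT-PCR. By the study's thresholds with the limma p, 2 probe sets of the list passed, both of SCOF-1 and higher in black, against 0.181% of all soybean probe sets. One SCOF-1 probe set had signals of 8.92, 9.41 and 9.30 in black and 8.49, 7.65 and 8.42 in brown plants 1, 2 and 3. As for DDF1-like and ERF6, black plant 2 was the highest and brown plant 2 the lowest, and this held for all 3 probe sets of SCOF-1. The SCOF-1 log2 differences were 0.77, 1.01 and 1.02, with limma adjusted p of 0.330, 0.346 and 0.374. The same plants were the extremes for SRC2 and COR2. Thus 5 of the 15 probe sets of this list above background (33.3%) shared this order, against 2.66% of all soybean probe sets above background. Of these 5, 3 read the gene SCOF-1 and are not separate evidence. GOLS and an ICE2 probe set above background had the reverse order, with black plant 2 lowest and brown plant 2 highest. The order was counted after it had been seen in the members, so nothing is read from the count. The median log2 difference of the list was 0.13.

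Pathogenesis-related proteins include known targets of the GCC box. The list held 8 probe sets, of CHIA1, PR1-1, PR1-7 and PR10 (also written PR-10). Which of these genes hold a GCC box was not examined here. Only CHIA1, a chitinase, was above background. Its signals were 8.86, 8.23 and 6.47 in black and 6.30, 8.09 and 4.89 in brown plants 1, 2 and 3. The genotypes overlapped, and CHIA1 had a limma adjusted p of 0.706 with a log2 difference of 1.43. Within each genotype CHIA1 ordered the plants as the mean of the embryo markers did, with black plant 1 and brown plant 2 highest and plant 3 lowest in both. The part of these markers in the difference of CHIA1 was not tested. None of these 8 probe sets had an unadjusted p under 0.05.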

How the data were processed

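The authors hybridized 100 ng of seed coat RNA from each plant, transcribed in vitro for 16 h, and deposited log2 signals made by RMA over all 6 arrays (versions not given in the sources used here). The fold changes, SAM scores and p-values in their 2 tables of listed probe sets were not used, and the study's lists served only to pick DDF1-like and the AP2/ERF probe sets without a symbol. Black and brown plants were compared unpaired with limma 3.58.1 in R 4.3.3 (lmFit, eBayes, two-sided), and p-values were adjusted over the 37641 soybean probe sets by Benjamini-Hochberg. SAM, the method of the study, was not run, and its thresholds were applied to the limma p. An exact permutation test of 3 against 3 cannot give a p below 0.1. The number of arrays limits the precision.

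The members and lists were chosen with earlier results of these data known. Named were DDF1-like, called members, the 8 smallest p, the 6 highest means, the 4 widest ranges and all probe sets of a named gene, which together took in all 13. Genes of all 13 matched Glycine max v4.0. No sequences are shown. The fit was checked on simulated data. Figures were drawn with matplotlib 3.10.9. Alternatives were each plant left out, the replicate block, trend and robust settings, array weights, median centring, cyclic loess, a filter on dim probe sets, all probe sets of the array, leaving out probe sets whose names mark shared probes (_s_at, _x_at, _a_at), and other background rules.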

Additional observations from a re-analysis of the deposited data

How the results depend on the processing

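The count of members that rose or fell stayed at 0 under all 14 alternatives in limma. DDF1-like was higher in black under each, with log2 differences from 2.00 to 3.51 and adjusted p from 0.253 to 0.717. The count past the thresholds of the study, 1 with all plants, was 0 to 1 when single plants were left out, being 0 without black plant 1, 2 or 3 or brown plant 3. It was 0 also with the replicate block, with trend and robust settings and with array weights. The median log2 difference was 0.042 to 0.11 when single plants were left out, lowest without black plant 2, 0.14 with median centring, 0.14 with cyclic loess and 0.15 without probe sets of shared probes (_s_at, _x_at, _a_at), where 9 members were tested. Median centring moved every member by the same amount. Without probe sets of shared probes each member left in kept its log2 difference, so the median changed only with the members left. The cause of the other shifts was not tested. Members above background were 11 at the 99th percentile and 10 when all 6 plants had to pass.

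Signs turned for DREB and for ERF3 probe sets 1 and 3, and for no other member. Without single plants, DREB ranged from -0.13 to 0.11, ERF3 probe set 1 from -0.070 to 0.0059 and ERF3 probe set 3 from -0.17 to 0.097. With median centring these members were at 0.035, 0.022 and 0.046, and with cyclic loess at 0.028, 0.014 and 0.036. With array weights DREB was at 0.0014 and ERF3 probe set 3 at 0.013. The cause of the turns other than with median centring was not tested.

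Same-numbered plants share only a number in the labels, and their deviations correlated at 0.092, 0.291 and 0.502. Those of differently numbered plants correlated at -0.447 to 0.26. The study harvested seed coats for comparison on the same days, and whether the numbers follow the days is not given. With the replicate block, 0 members were called, 14 soybean probe sets rose and 9 fell, against 25 and 16 without it, and DDF1-like had an adjusted p of 0.444 at the same log2 difference of 2.90. The filter on dim probe sets left out DREB1-like and ERF3 probe set 2.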

Other observations

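Besides the members with a symbol, the lists of the study hold AP2/ERF probe sets without one, chosen there for their difference between the same plants, so their values are a description only. A factor described as an AP2/ERF domain protein of chromosome 9 had signals of 6.14, 7.31 and 6.19 in black and 7.90, 7.09 and 8.02 in brown plants 1, 2 and 3. Black plant 2 lay above brown plant 2, so the genotypes overlapped, unlike for DDF1-like (log2 difference -1.12, limma adjusted p = 0.518). The study places an AP2/ERF gene of chromosome 9, lower in black, between markers on either side of the putative R locus. It proposes that gene as a candidate among others. A transcript described as similar to an ethylene-responsive element binding protein (EREBP) was read by 3 probe sets, all lower in black without overlap. The listed probe set had 3.55, 3.64 and 4.57 in black and 5.16, 4.72 and 4.99 in brown plants, and 1 of the 3 black plants, plant 3, was above background, so the fitted log2 difference of -1.04 (limma adjusted p = 0.435) rests partly on signals at background. The other probe sets, above background in all plants, had -0.37 and -0.22, with limma adjusted p of 0.518 and 0.595. The names of the listed probe set and of the last end in _a_at and _s_at, which mark shared probes. The study names an EREBP family among the regulatory genes that differed on chromosome 9. Whether this transcript belongs to it was not examined here.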
